A study of Homo sapiens with 6 samples.

Results

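The proteasome subunit genes were followed in a comparison of TAZ-siRNA with control-siRNA in the breast cancer line MDA-MB-231. The members were the protein-coding genes whose symbols mark alpha, beta, ATPase and non-ATPase subunits, activators, the inhibitor PSMF1 and the PSMG assembly chaperones. This rule matched 48 of the 46427 genes in the deposited gene table, and 46 remained after PSMB8 and PSMB9 were left out. Of these, 44 had enough reads to be tested. PSMA8, a testis form of an alpha subunit, had no count in any library, and PSMB11, a thymus form of a catalytic subunit, had 2 counts in TAZ-siRNA replicate 1 and none elsewhere. A count of 0 allows up to 0.0411 to 0.0618 CPM (counts scaled to library size) in these libraries.

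MDA-MB-231 is an established human breast cancer line, triple negative and mesenchymal in shape, and all samples came from this line, grown in low glucose medium with serum. In the TAZ-siRNA group the cells were transfected with siRNA against WWTR1, the gene of the transcriptional co-activator TAZ. The control-siRNA group is labelled as wild type. Each group held 3 libraries from 3 cell preparations, and the question was which transcripts change when TAZ is depleted. The time from transfection to the sequenced RNA is not given in the sources used here.

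The proteasome is the barrel-shaped protease that degrades proteins tagged with ubiquitin. Its core particle stacks rings of alpha subunits, which gate the entrance, on rings of beta subunits, of which PSMB5, PSMB6 and PSMB7 cut peptide bonds. The regulatory particle has a base, whose ATPases unfold the substrate, and a lid, which removes ubiquitin. In immune signalling PSMB10 can replace PSMB7, and PSME1 with PSME2 can cap the core in place of the regulatory particle. In human cells the factor NFE2L1 is known to raise many of these genes together when proteasome activity falls.

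The libraries held 48307548 to 71749634 counts. WWTR1 itself was at 190.6 ± 1.45 CPM (SD, n = 3) in control-siRNA and 16.5 ± 1.21 CPM (SD, n = 3) in TAZ-siRNA libraries, which is 8.65% of control. VIM, KRT8, KRT18, CD44 and MSN, the markers of this line, were all measured, all 5 had log2 fold changes below 0 (median -0.0717) and none passed the test, while ESR1 and PGR stayed at or below 0.0295 TPM (abundance scaled for transcript length and library size). Of the markers of other cell types, PTPRC was at 0 in every library, ALB and COL3A1 reached at most 0.0841 TPM and PECAM1 reached 2.67 TPM. Each number is RNA in a whole culture, in which fewer cells of a kind and less RNA per cell cannot be told apart.

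Few proteasome genes passed the test after TAZ-siRNA, and most fold changes were small and below 0. In edgeR's quasi-likelihood test with Benjamini-Hochberg adjustment, 4 of the 44 tested members fell and 0 rose at an adjusted p under 0.05. The members that fell were PSMG4 (gene ID 389362, chr6:3254325-3308224), PSMG1 (8624, chr21:39174769-39183514), PSMD8 (5714, chr19:38374550-38383824) and PSME3 (10197, chr17:42833397-42843760), with the GRCh38 spans of their deposited transcripts. Over all 16966 genes tested, 10.2% were called lower and 11.9% were called higher, so the members' share of lower calls was close to the background and their share of higher calls was below it. At an unadjusted p under 0.05 there were 14 members, the 4 called ones included. The share of all genes at that cutoff is not given here, so nothing is drawn from this count. The log2 fold change (TAZ-siRNA against control-siRNA) was below 0 in 38 of 44 members, or 86.4%, against 50.8% of all genes tested. Its median was -0.094 in the members and -0.00538 in all genes. No member changed by 1.5-fold or more, and for 35 of 44 the 95% interval of the fold change lay within 25% either way. The median absolute log2 fold change was 0.0965 in the members and 0.167 in all genes. The members were also measured more precisely, with a median SE of 0.0602 against 0.0844 in all genes. No comparison with genes of similar abundance was made, so the 2 medians do not show a smaller response of the members.

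**Figure D1:**
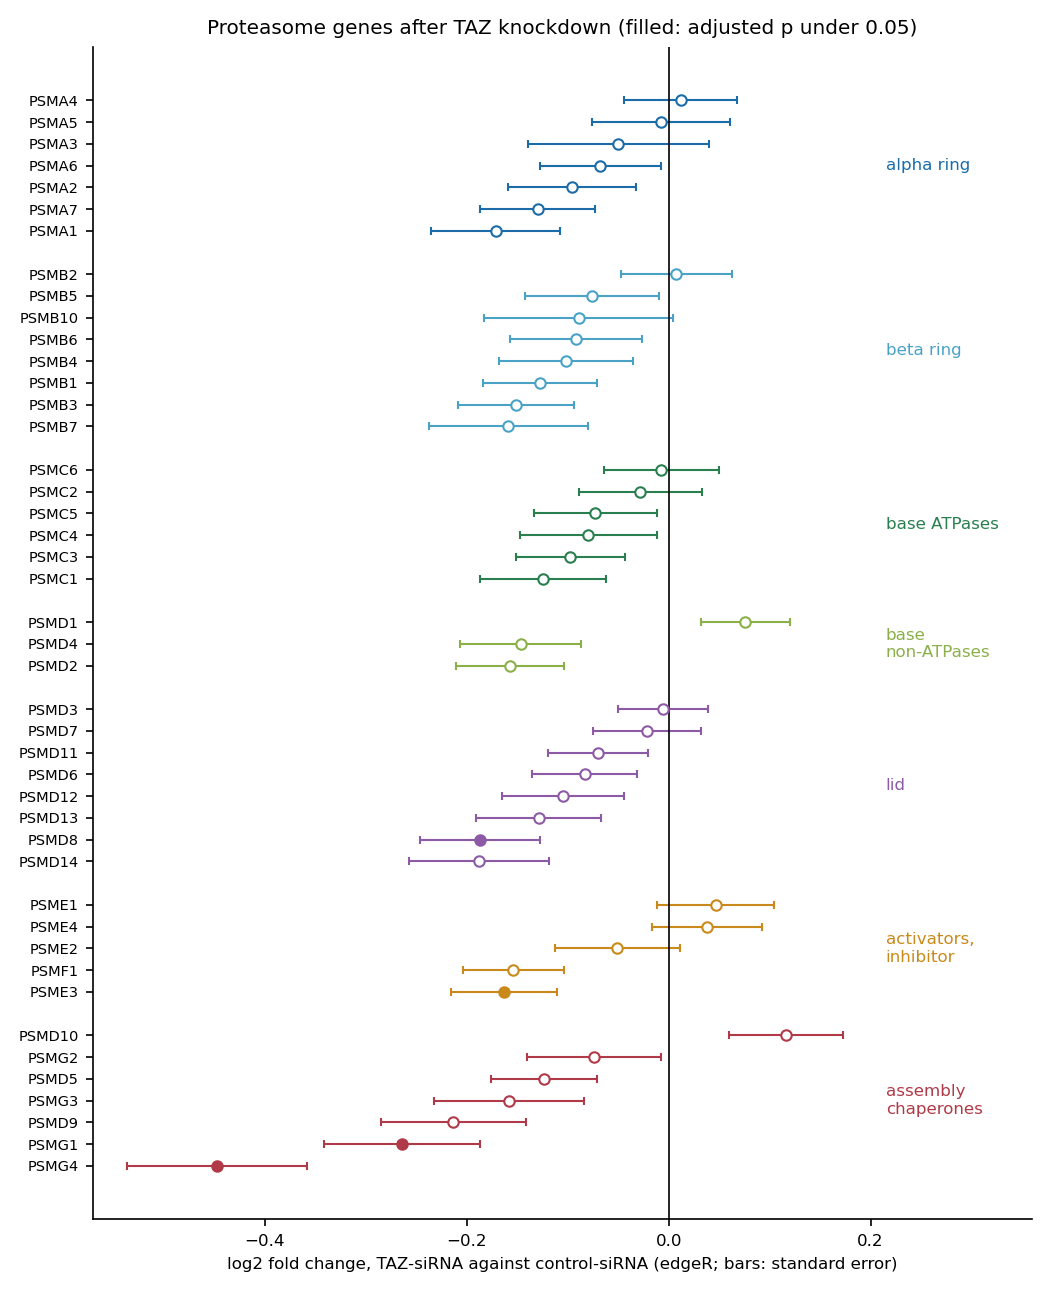
Log2 fold change of each of the 44 tested proteasome genes (x axis, TAZ-siRNA against control-siRNA, edgeR fit over 3 libraries a group, bars are standard errors) by structural group. Most points lie left of 0, and the 4 filled points, PSMG4, PSMG1, PSMD8 and PSME3, passed an adjusted p of 0.05.

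The members moved together from library to library. Against the mean of the control-siRNA libraries, the median log2 deviation of the members was -0.032, -0.0217 and 0.0572 in control-siRNA replicates 1 to 3, and -0.125, -0.171 and 0.0146 in TAZ-siRNA replicates 1 to 3. TAZ-siRNA replicate 3 thus stood apart from the other TAZ-siRNA libraries and lay within the range of the controls. It was the highest of the 3 TAZ-siRNA libraries in 40 of 44 members, against 37.8% of all genes. Control-siRNA replicate 3 was likewise the highest of its group in 35 of 44 members, against 36.9% of all genes. The summed counts of the members were 0.584% to 0.644% of a library's total. What set replicate 3 of each group above the others was not tested.

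**Figure D2:**
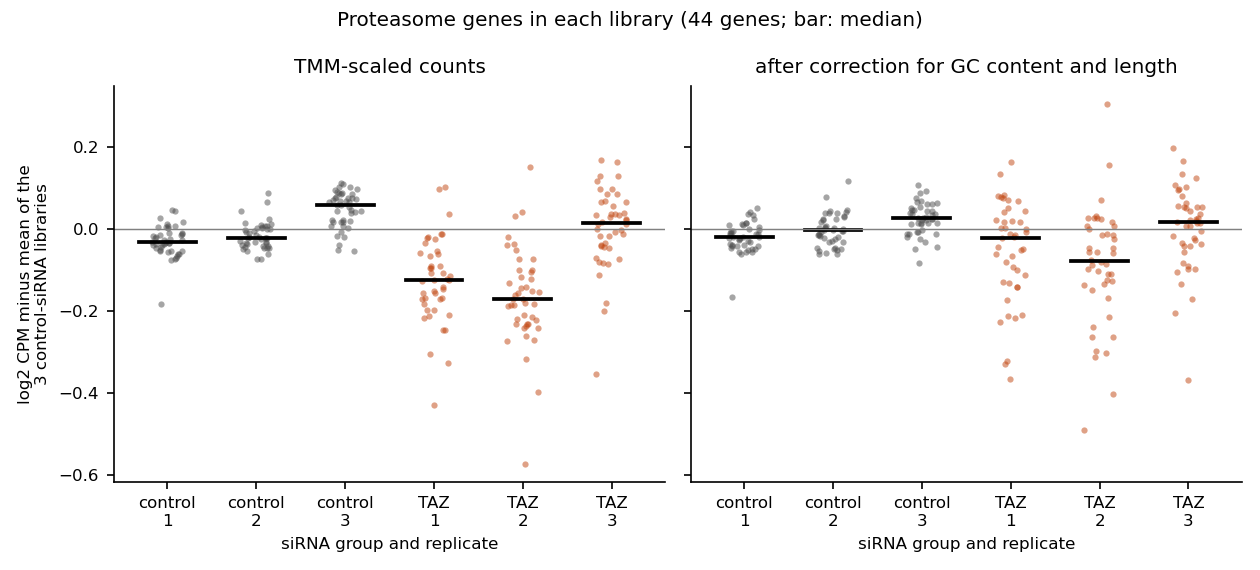
Deviation of each of the 44 genes from its mean in the 3 control-siRNA libraries (y axis, log2 CPM), for each library on the x axis, before (left) and after (right) a correction for GC content and transcript length; points are genes and bars are medians. On the left the medians of TAZ-siRNA replicates 1 and 2 are -0.125 and -0.171 while that of replicate 3 is 0.0146, and on the right all medians lie between -0.0786 and 0.0248.

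Without TAZ-siRNA replicate 3 the count of members called lower was 25 in place of 4, and none was called higher. All genes also gave more calls in that fit, 16.1% lower and 17.6% higher. The median log2 fold change of the members was then -0.147, against -0.000195 over all genes, and 40 of 44 members were below 0. Leaving out any of the other 5 libraries gave 1 call, that of PSMG4, beside 4.84% to 6.72% of all genes called lower. The median of the members was -0.0511 without TAZ-siRNA replicate 2 (32 of 44 below 0) and -0.057 without control-siRNA replicate 3 (36 of 44 below 0). The 4 members called with all 6 libraries were among the 25.

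**Figure D3:**
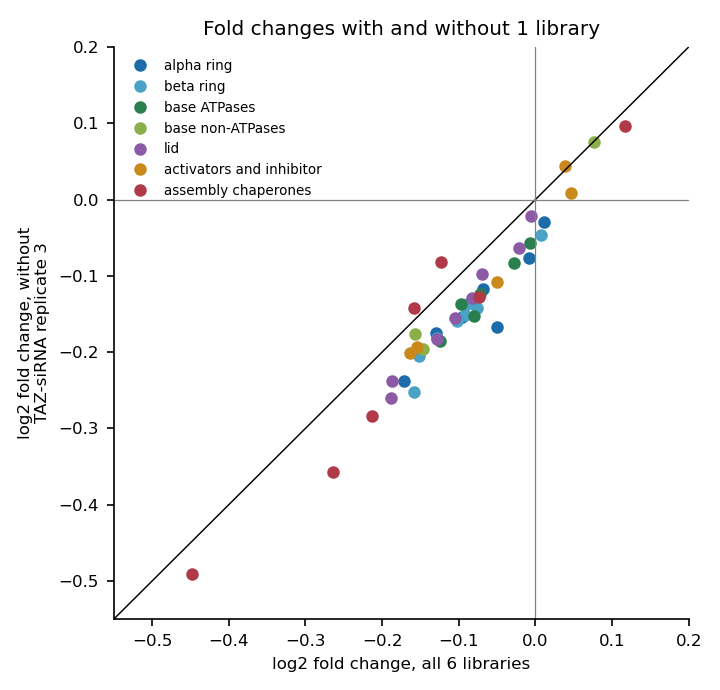
Log2 fold change of the 44 tested genes from all 6 libraries (x axis) and from the 5 libraries without TAZ-siRNA replicate 3 (y axis), coloured by structural group, with the line of equal values. Most points lie below the line, and the median goes from -0.094 to -0.147.

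A fit that also corrected for GC content and transcript length gave a smaller shift. In it the median of the members was -0.0396, beside -0.0134 over all genes, and 25 members were below 0 while 19 were above. Under that correction 8 members were called lower (background 16.3%) and 2 were called higher (background 13.7%). The members lower were PSMG4, PSMG1, PSMD9, PSMD5, PSMD2, PSMD8, PSME3 and PSMF1, and those higher were PSMD10 and PSME1. The core particle no longer lay below 0 in this fit, with 6 of 15 members negative.

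The alpha ring forms the outer wall and gate of the core. Of its 7 tested members, 6 were below 0, with a median log2 fold change of -0.0679, and none passed the test. PSMA1, a constitutive alpha subunit, differed most. Its CPM were 187.2, 194.5 and 202.6 in control-siRNA and 168.4, 161.0 and 189.4 in TAZ-siRNA replicates 1 to 3. Only TAZ-siRNA replicate 3 reached into the control range, and the log2 fold change was -0.17 (SE 0.0643, adjusted p = 0.0813). PSMA6 had the highest level of all members, 508.8 ± 22.1 TPM (SD, n = 3) in control-siRNA and 508.9 ± 9.67 TPM (SD, n = 3) in TAZ-siRNA libraries. By counts it gave 259.0, 259.4 and 277.3 CPM against 243.4, 244.2 and 271.5 CPM, which overlapped. Its log2 fold change by counts was -0.068 (adjusted p = 0.457), and it was 0.051 in the GC- and length-corrected fit. Without TAZ-siRNA replicate 3, 4 of the 7 alpha subunits were called lower, beside 16.1% of all genes, and no other leave-out fit called any.

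The beta ring holds the active sites. Of 8 tested members 7 were below 0, with a median of -0.097, and none passed the test. PSMB7, which cuts after basic residues, had the largest difference of the ring, with 158.3, 160.9 and 178.6 CPM in control-siRNA and 139.5, 138.2 and 168.1 CPM in TAZ-siRNA libraries. TAZ-siRNA replicate 3 overlapped the controls, and the log2 fold change was -0.16 (SE 0.0792, adjusted p = 0.181). PSMB5, which carries the chymotrypsin-like activity and is the target of bortezomib, was at 211.8, 209.7 and 230.0 CPM against 198.6, 193.9 and 225.7 CPM. The groups overlapped here too, at a log2 fold change of -0.076 (SE 0.0666, adjusted p = 0.454). PSMB6, the caspase-like subunit, gave 96.7, 95.2 and 106.5 CPM against 91.0, 87.5 and 101.3 CPM and a log2 fold change of -0.092 (SE 0.0654, adjusted p = 0.346). All 3 catalytic subunits were called lower without TAZ-siRNA replicate 3, at adjusted p of 0.00143 for PSMB7, 0.0387 for PSMB5 and 0.0371 for PSMB6. In that fit 16.1% of all genes were called lower, and no other leave-out fit called these subunits. In the GC- and length-corrected fit their log2 fold changes were -0.058, 0.0079 and 0.014.

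The base couples ATP to unfolding. All 6 of its ATPases were below 0, with a median of -0.0761, and none passed the test. PSMC1, an ATPase of the base ring, differed most, with 153.0, 153.0 and 163.7 CPM in control-siRNA and 141.3, 133.2 and 156.2 CPM in TAZ-siRNA libraries. The groups overlapped through TAZ-siRNA replicate 3, and the log2 fold change was -0.12 (SE 0.0624, adjusted p = 0.181). PSMC1 has 12 listed pseudogenes whose summed counts were 5.33% of its own, the highest share of any member, so reads shared between near-identical copies may touch its value. PSMC5, the most abundant ATPase transcript, was at 265.3 ± 8.09 TPM (SD, n = 3) and 263.2 ± 7.0 TPM (SD, n = 3). Its counts of 159.8, 160.9 and 176.8 CPM against 153.6, 149.9 and 169.4 CPM overlapped, at a log2 fold change of -0.073 (adjusted p = 0.434).

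The non-ATPase scaffolds of the base went different ways. PSMD2, a ubiquitin-binding scaffold, had 326.9, 312.1 and 333.8 CPM in control-siRNA and 287.7, 284.8 and 299.9 CPM in TAZ-siRNA libraries. All 3 TAZ-siRNA values lay below the controls, and the log2 fold change of -0.16 (SE 0.0532) had an adjusted p of 0.0575, just outside the threshold. PSMD4, a ubiquitin receptor, had overlapping groups at -0.15 on the log2 scale (adjusted p = 0.105). PSMD1, the other scaffold, was at 150.2, 146.5 and 145.8 CPM against 158.1, 151.8 and 156.5 CPM. These groups did not overlap, the TAZ-siRNA libraries being higher, and the log2 fold change of 0.076 (SE 0.0443) had an adjusted p of 0.248. The difference between PSMD1 and PSMD2 in their response was not tested.

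All 8 subunits of the lid were below 0, with a median of -0.094, and 1 of them passed the test, beside 10.2% of all genes called lower. PSMD8, a scaffold subunit of the lid, fell from 204.2 ± 9.08 CPM (SD, n = 3) to 179.4 ± 11.7 CPM (SD, n = 3). The control-siRNA libraries gave 196.5, 201.8 and 214.2 CPM and the TAZ-siRNA libraries 172.1, 173.1 and 192.9 CPM. The groups did not overlap, and the log2 fold change was -0.19 (SE 0.0593, adjusted p = 0.046), or 87.9% of control. Leaving out any library but TAZ-siRNA replicate 3 ended this call, at adjusted p of 0.0811 to 0.182. PSMD14, the deubiquitinase of the lid, had a similar log2 fold change of -0.19 with a larger error (SE 0.0694, adjusted p = 0.0775). Its values were 199.1, 199.3 and 215.6 CPM in control-siRNA and 176.6, 164.2 and 198.1 CPM in TAZ-siRNA libraries, with TAZ-siRNA replicate 3 just below the lowest control. PSMD3 and PSMD7, other structural subunits of the lid, had log2 fold changes of -0.0054 and -0.021.

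Among the caps and the inhibitor, 1 of 5 members passed the test, beside 10.2% of all genes called lower. PSME3, the nuclear activator that opens the core without ATP or ubiquitin, fell from 201.5 ± 2.74 CPM (SD, n = 3) to 179.9 ± 9.85 CPM (SD, n = 3). Its values were 202.1, 198.4 and 203.8 CPM in control-siRNA and 179.1, 170.5 and 190.1 CPM in TAZ-siRNA libraries. The groups did not overlap, and the log2 fold change was -0.16 (SE 0.0523, adjusted p = 0.0476), the adjusted p closest to the threshold among the called members. Leaving out any of the other 5 libraries than TAZ-siRNA replicate 3 ended the call, at adjusted p of 0.131 to 0.15. PSMF1, which blocks the core in vitro, lay just outside the threshold, with 162.9, 165.8 and 165.6 CPM against 145.0, 142.3 and 156.9 CPM. These groups did not overlap either, and the log2 fold change was -0.15 (SE 0.0501, adjusted p = 0.0502). PSME4, a nuclear cap linked to histone turnover, had 271.0, 263.6 and 253.0 CPM in control-siRNA and 280.8, 259.0 and 268.9 CPM in TAZ-siRNA libraries. The groups overlapped, at a log2 fold change of 0.038 (SE 0.0542, adjusted p = 0.661).

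The assembly chaperones, which build the particle and leave it, held the members with the largest changes in both directions. Of the 7, 6 were below 0, the median was -0.158, and 2 passed the test, both lower, beside 10.2% of all genes called lower. With 7 genes, nothing is drawn from this count. PSMG4, which works with PSMG3 in building the alpha ring, fell from 8.74 ± 0.0922 CPM (SD, n = 3) to 6.40 ± 0.486 CPM (SD, n = 3). The control-siRNA libraries gave 8.65, 8.84 and 8.75 CPM and the TAZ-siRNA libraries 6.498, 5.88 and 6.84 CPM. No TAZ-siRNA value reached the lowest control, and the log2 fold change was -0.45 (SE 0.0894, adjusted p = 0.00601), or 73.3% of control. This call held in 6 of 6 fits that each left out a library, with log2 fold changes from -0.49 to -0.39. PSMG4 was also the least abundant tested member, at 290 to 577 counts in a library, and its deposited span overlaps that of SLC22A23, with which it may share reads.

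PSMG1, which pairs with PSMG2 as the other chaperone of the alpha ring, gave 40.4, 41.5 and 40.6 CPM in control-siRNA and 32.6, 31.0 and 38.5 CPM in TAZ-siRNA libraries. The groups did not overlap, and the log2 fold change was -0.26 (SE 0.077, adjusted p = 0.0329), or 83.3% of control. It passed without TAZ-siRNA replicate 3 (adjusted p = 0.00013) and in none of the other 5 leave-out fits, where adjusted p ran from 0.0914 to 0.131. PSMG2 had 59.8, 60.7 and 66.9 CPM against 58.4, 55.4 and 64.1 CPM. Here the groups overlapped, at a log2 fold change of -0.074 (SE 0.0667, adjusted p = 0.469). By CPM, PSMD9, PSMG3 and PSMD5 also lay lower in every TAZ-siRNA library and did not pass, with adjusted p of 0.0578, 0.154 and 0.118. By TPM the groups overlapped for PSMG3, at 25.96 in TAZ-siRNA replicate 1 against 21.84 to 24.26 in control-siRNA libraries. They overlapped for PSMD5 too, at 51.72 in TAZ-siRNA replicate 2 against 48.12 in control-siRNA replicate 3, and not for PSMD9. PSMD10, the base chaperone also known as gankyrin, was the member with the highest fold change, with 33.2, 33.3 and 33.8 CPM against 34.3, 37.1 and 37.4 CPM. Its groups did not overlap, and the log2 fold change was 0.12 (SE 0.0564, adjusted p = 0.166).

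**Figure D4:**
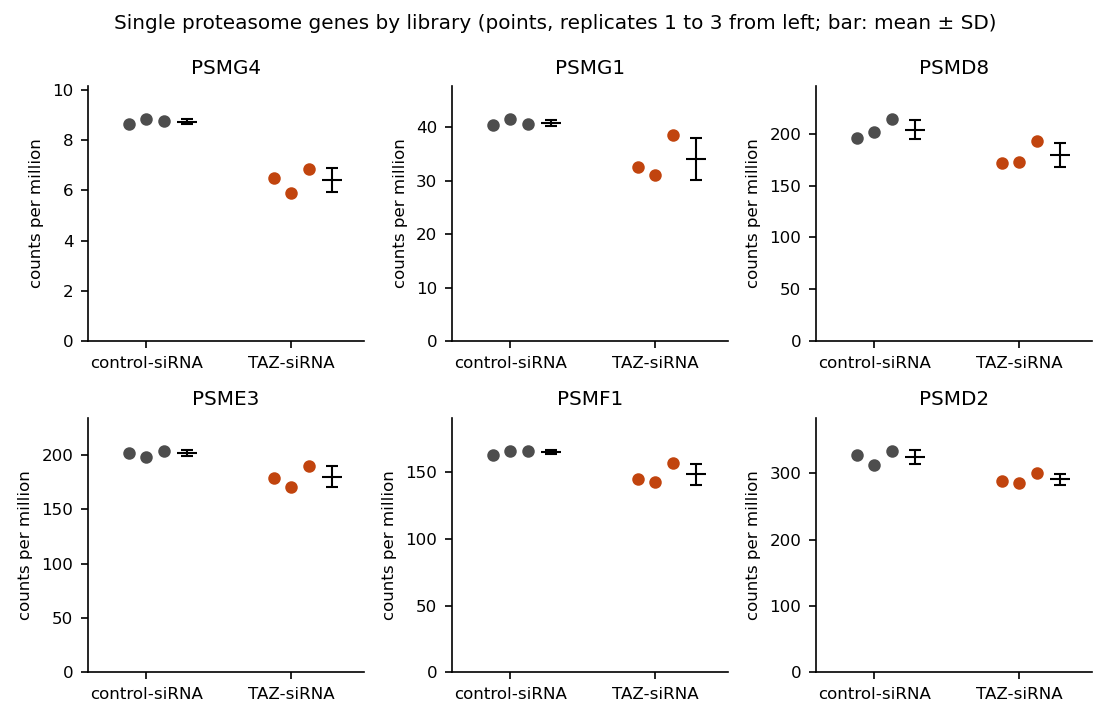
Scaled counts (CPM) of the 4 called genes and of PSMF1 and PSMD2 (y axis, from 0) in the 3 control-siRNA and 3 TAZ-siRNA libraries; points are libraries and bars are means with SD. In all 6 genes every TAZ-siRNA library lies below every control-siRNA library, and TAZ-siRNA replicate 3 is the highest of its group.

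Counted by CPM without the test, 11 members lay lower in all TAZ-siRNA than in all control-siRNA libraries, and 2 lay higher. Over all genes these shares were 19.6% and 20.0%, so 11 of 44 was near the background and 2 of 44 was below it. The chaperones contributed 5 of the 11, the lid 2, the activators and inhibitor 2, and the beta ring and base 1 each.

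Set side by side, the core had a median log2 fold change of -0.0922 (13 of 15 below 0, 0 called), the base -0.0795 (8 of 9 below 0, 0 called) and the lid -0.094 (8 of 8 below 0, 1 called). The immunoproteasome-related genes PSMB10, PSME1 and PSME2 had a median of -0.0507, with 2 of 3 below 0 and 0 called. Beside these counts, 10.2% of all genes were called lower and 11.9% higher. Summed TPM of the core was 4161 ± 84.5 (SD, n = 3) in control-siRNA and 4038 ± 120.0 (SD, n = 3) in TAZ-siRNA libraries, and that of the regulatory particle was 3027 ± 25.1 and 2929 ± 72.6. For PSMB10, PSME1 and PSME2 together it was 982.1 ± 27.2 and 1017 ± 14.4 TPM. Of these, PSME1 had means of 468.1 and 502.1 TPM, PSME2 of 483.1 and 484.9 TPM, and PSMB10 of 30.95 and 30.18 TPM. PSMB10 is also counted in the core. On the log2(TPM + 1) scale the median difference over all genes was itself 0.0348, against -0.00538 by counts. The differences between these groups were not tested.

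Of PSMB7 and its immune replacement PSMB10, the latter was lower in every library. PSMB10 was at 31.0 ± 2.99 TPM (SD, n = 3) in control-siRNA and 30.2 ± 1.21 TPM (SD, n = 3) in TAZ-siRNA libraries, against 366.0 ± 15.6 and 340.0 ± 22.8 TPM for PSMB7. The ratio of PSMB10 to PSMB7 was 8.45% in control-siRNA and 8.90% in TAZ-siRNA libraries, a difference within the spread between libraries (exact permutation test, 2-sided, p = 0.4, where 0.1 is the smallest p that 3 against 3 allows). By counts, PSMB10 had 12.2, 14.7 and 14.8 CPM against 12.1, 13.2 and 14.0 CPM. The groups overlapped, with a log2 fold change of -0.089 (SE 0.0937, adjusted p = 0.54).

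The caps PSME1 and PSME2 were among the most abundant members, at 468.1 ± 14.4 and 483.1 ± 10.7 TPM (SD, n = 3) in control-siRNA libraries. PSME1 gave 198.9, 208.7 and 219.5 CPM in control-siRNA and 206.0, 213.4 and 228.4 CPM in TAZ-siRNA libraries, with overlapping groups and a log2 fold change of 0.047 (SE 0.0579, adjusted p = 0.608). PSME2 gave 173.5, 177.3 and 189.6 CPM against 169.0, 164.3 and 188.3 CPM. It too overlapped, at a log2 fold change of -0.051 (SE 0.0615, adjusted p = 0.60). Relative to PSME3 the level of PSME1 was 3.27, 3.49 and 3.58-fold in control-siRNA and 3.82, 4.16 and 3.97-fold in TAZ-siRNA libraries, without overlap and with no test. The level of PSME2 relative to PSME3 did not overlap either, at 3.422, 3.559 and 3.696-fold against 3.745, 3.86 and 3.935-fold. PSME3 was itself a called member without overlap, so its own fall enters both ratios.

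The levels, given per length as TPM, spanned 42.9-fold among the tested members. After PSMA6 came PSME1 and PSME2, then PSMA7 and PSMB5, and the neighbours in this order overlapped between libraries. The constitutive subunits of a ring are built in equal numbers, and their transcript levels differed: alpha subunits ranged from 127.8 TPM for PSMA5 to 508.9 TPM for PSMA6, and constitutive beta subunits from 51.9 TPM for PSMB2 to 445.3 TPM for PSMB5. The ATPases had the narrowest range of the groups with more than 3 members, 3.38-fold. The chaperones were low, with PSMG4 at 11.9 TPM at the bottom and PSMG2 at 125.8 TPM at their top.

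**Figure D5:**
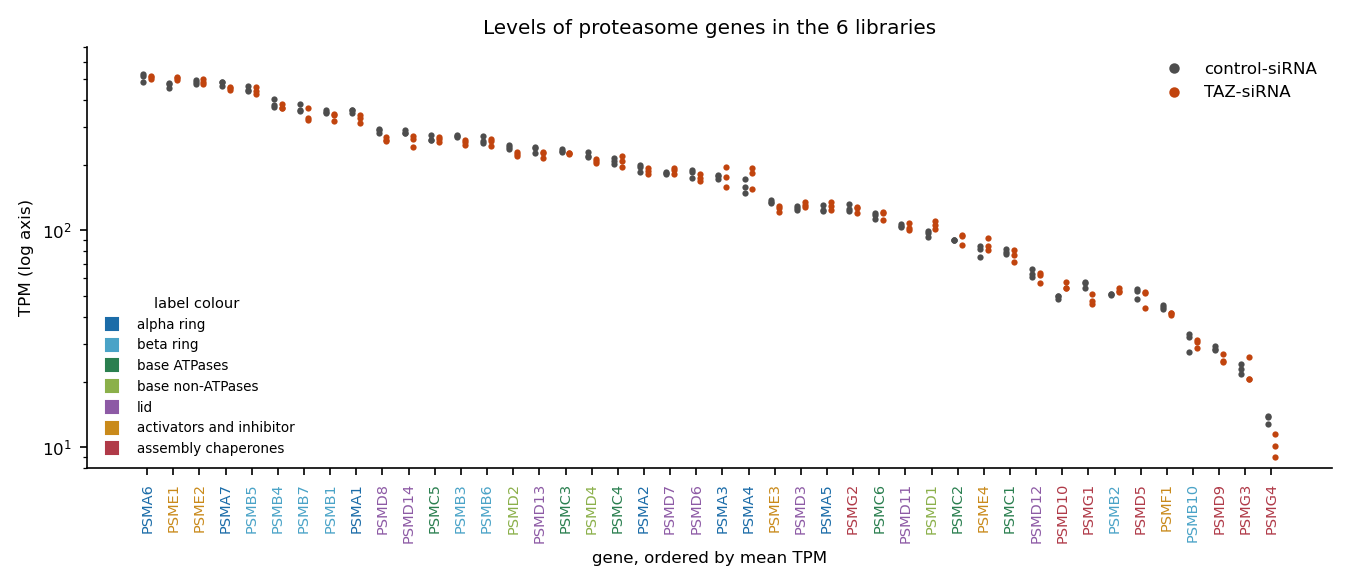
Level of each of the 44 tested genes (y axis, TPM, log axis) in the 3 control-siRNA and 3 TAZ-siRNA libraries (points), ordered by mean level with label colour giving the structural group. Levels run from 508.9 TPM for PSMA6 to 11.9 TPM for PSMG4, and the points of both groups lie close together for nearly all genes.

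The transcript table lists 147 transcripts of the members, of which 110 had a mean of at least 1 TPM. For 27 members a single transcript held over 90% of the gene's TPM in every library where the gene had any. They include PSMB11, which was not tested and had counts in TAZ-siRNA replicate 1 only. PSMD8 has 1 listed transcript, the leading transcript of PSME3 held 78.1 ± 3.86% and 76.0 ± 3.53% (SD, n = 3), and that of PSMG4 held 70.7 ± 1.85% and 73.0 ± 8.63% (SD, n = 3). The leading share of PSMG1, the remaining called member, varied more, at 66.5 ± 15.5% in control-siRNA and 69.6 ± 12.5% in TAZ-siRNA libraries (SD, n = 3). In PSMC4 the leading share was unstable between replicates, at 49.9 ± 30.9% (SD, n = 3) in control-siRNA and 70.9 ± 9.79% (SD, n = 3) in TAZ-siRNA libraries, a spread larger than the difference. The leading shares of PSMD4 (46.2 ± 4.19% and 66.1 ± 22.4%) and PSMD6 (73.0 ± 18.8% and 61.1 ± 19.9%) were spread widely too. The genes lie on 17 chromosomes, with 8 on chromosome 14 and 7 on chromosome 17.

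The promoters are shown as a description, and whether they bear on the members' shared movement from library to library was not tested. RefSeq upstream sequence (GRCh38.p14) matched 40 of the 46 members, and the 250 bases before each start were searched on both strands for 4 short motifs. The antioxidant response element core TGACNNNGC, bound by NFE2L1 and NFE2L2, stood in 10 of 40 member promoters, against 11.0% of all 27305 promoters. The ETS element CGGAAG stood in 20 of 40, against 16.8% of all, and CCAAT stood in 17 of 40, against 33.0%. GGAATG, the element of the TEAD factors that carry TAZ on DNA, stood in 3 of 40, PSMC6, PSME2 and PSME3, against 11.9% of all. All members are protein-coding, and among the 15515 promoters of protein-coding genes the shares were different. They were 11.6% for TGACNNNGC, 21.9% for CGGAAG, 34.7% for CCAAT and 10.1% for GGAATG. The median log2 fold change of members with and without each motif was -0.102 and -0.0738 for CGGAAG, -0.0893 and -0.0814 for TGACNNNGC, -0.0796 and -0.0843 for CCAAT, and -0.0507 and -0.0833 for GGAATG. None of the 4 motifs contains another, though matches may share end letters, and a match is only a run of letters, not a bound site. The sequences of 3 called members are printed 5′ to 3′ on the strand of the gene, cut before the first base that an annotated exon covers or where a deposited transcript starts, with motif matches in capitals. They are PSMG4 (chr6:3258697-3258896, plus strand), PSMG1 (chr21:39183515-39183701, minus strand) and PSMD8 (chr19:38374321-38374549, plus strand). The PSMG4 stretch lies within the span of longer deposited PSMG4 transcripts that start farther upstream.
PSMG4: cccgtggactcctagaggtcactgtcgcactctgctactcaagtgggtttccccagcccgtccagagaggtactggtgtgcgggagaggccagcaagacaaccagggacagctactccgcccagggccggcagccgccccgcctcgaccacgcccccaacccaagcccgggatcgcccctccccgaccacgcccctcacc
PSMG1: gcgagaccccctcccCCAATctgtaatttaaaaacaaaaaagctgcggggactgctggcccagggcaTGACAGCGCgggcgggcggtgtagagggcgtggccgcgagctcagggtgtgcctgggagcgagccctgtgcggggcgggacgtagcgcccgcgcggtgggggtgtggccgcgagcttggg
PSMD8: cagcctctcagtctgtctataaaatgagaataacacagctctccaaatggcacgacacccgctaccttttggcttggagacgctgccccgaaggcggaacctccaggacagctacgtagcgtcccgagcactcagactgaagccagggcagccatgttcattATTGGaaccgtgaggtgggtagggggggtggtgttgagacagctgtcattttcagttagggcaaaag
PSMG1 holds a CCAAT and a TGACNNNGC match, PSMD8 holds ATTGG, which is CCAAT on the other strand, and the printed stretch of PSMG4 holds none of the 4 motifs. The CGGAAG matches counted for PSMG4 and PSMD8 lie in the part of their 250 bases that is not printed.

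Genes that work with the proteasome were counted from lists of partners, transcriptional control and ubiquitin supply. Of 35 such genes, all tested, 6 fell and 2 rose, with a median log2 fold change of -0.0574. Over all genes tested 10.2% were lower and 11.9% higher, with a median of -0.00538. Among the partners, UCHL5, a deubiquitinase docked on the base, had 85.4, 87.6 and 85.5 CPM in control-siRNA and 65.5, 64.8 and 70.3 CPM in TAZ-siRNA libraries. The groups did not overlap, at a log2 fold change of -0.37 (SE 0.0495, adjusted p = 7.77e-04). UBLCP1, a phosphatase of the regulatory particle, fell with a log2 fold change of -0.28 (adjusted p = 0.00222), and ZFAND5, an activator of the particle, rose with 0.26 (adjusted p = 0.00508). All 3 were called in 6 of 6 fits that each left out a library. ADRM1, the docking site of UCHL5, gave -0.079 (adjusted p = 0.377), SEM1 of the lid gave -0.015 (adjusted p = 0.895) and POMP, the maturation factor of the core, gave -0.12 (adjusted p = 0.314).

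NFE2L1, the factor known to drive these genes, was at 315.9, 330.8 and 346.5 CPM in control-siRNA and 333.0, 344.4 and 330.7 CPM in TAZ-siRNA libraries. The groups overlapped, with a log2 fold change of 0.021 (SE 0.0555, adjusted p = 0.817). Of the enzymes that mature it, DDI2, its protease, fell with -0.19 (adjusted p = 0.0365) and NGLY1, its deglycosylase, fell with -0.23 (adjusted p = 0.0285). MAFG, a small MAF partner of such factors, rose with 0.28 (adjusted p = 0.00329). In ubiquitin supply, RPS27A, which encodes ubiquitin fused to a ribosomal protein, fell with -0.23 (adjusted p = 0.0446) and UBA6, a ubiquitin-activating enzyme, fell with -0.19 (adjusted p = 0.0307). When each library was left out in turn, NGLY1 and RPS27A were called in 1 of 6 fits, and DDI2 and UBA6 in 2. In the GC- and length-corrected edgeR fit RPS27A was at -0.108 and was not called (adjusted p = 0.0712). DDI2, NGLY1, MAFG and UBA6 stayed called there in the same directions.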

How the data were processed

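RNA from MDA-MB-231 cells was sequenced as 100-bp paired reads after a TruSeq Stranded mRNA preparation, 3 libraries a group. After trimming, the authors aligned reads to GRCh38 by HISAT2 and assembled RefSeq transcripts by StringTie. The submitters' processing notes name Bowtie 0.12.2 and the builds GRCh38 and mm8, and which aligner gave the counts was not settled. Other versions and the strand setting are not given in the sources used here, so reads of overlapping or antisense genes may be shared. The deposited estimated counts per gene are whole numbers that the authors derived from read coverage, and FPKM and TPM are deposited too, which the authors scaled for length and library size.

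Counts were tested with edgeR 4.0.16 in R 4.3.3 (TMM factors, filterByExpr with a minimum count of 10, robust quasi-likelihood fit, group as the only term), with Benjamini-Hochberg adjustment over all 16966 genes tested and a threshold of 0.05. The common biological coefficient of variation was 8.04%. DESeq2 1.42.0, limma 3.58.1 on log2(FPKM + 1), log2(FPKM + 0.1) and log2(TPM + 1), other scalings and filters, a replicate block, a spline correction of log counts for GC content and length (15218 genes with both values), and leaving out each library were alternatives. Intervals of 95% used the SE and 4 degrees of freedom. Scripts were tested on simulated data. Limits from a count of 0 (3 counts) cover counting error only.

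Named with values in each library were the called members, the catalytic subunits, PSMB10, PSME1 to PSME4, PSMF1, and in each structural group the member of largest fold change and of highest TPM. Pathway genes were named where called, with NFE2L1, ADRM1, SEM1 and POMP. Other members named stood just outside the threshold, at an extreme or without overlap between groups, and were chosen after their values were seen. The members and lists were chosen with earlier results of these data known. Replicate numbers follow the column names CTL and TAZ 1 to 3. Tables and figures were made with pandas 2.3.3, SciPy 1.17.1 and matplotlib 3.10.9.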

Additional observations from a re-analysis of the deposited data

How the results depend on the processing

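The 4 calls, all lower, were among the 8 given by DESeq2 (12.2% of all genes lower) and the 10 (8 lower, 2 higher) given by the GC- and length-corrected fit (16.3% and 13.7%). With a stricter adjusted p under 0.01 only PSMG4 remained, so 1 was called, and the share of all genes at 0.01 is not given here. On log2(TPM + 1) limma called 2, both lower, beside 5.56% of all genes lower and 9.43% higher. PSMD8 (adjusted p = 0.0515) and PSME3 (adjusted p = 0.13) were not called by that fit. Leaving out a library gave 1 to 25 calls, all lower, beside 4.84% to 16.1% of all genes called lower. Upper-quartile factors, other filters and limma on log2(FPKM) gave 3 to 5, all lower, beside 5.98% to 11.4% of all genes called lower. PSME3 was lost in edgeR without a filter on low counts (adjusted p = 0.0636). It was also lost in limma on log2(FPKM + 1) and log2(FPKM + 0.1) (adjusted p = 0.052 and 0.0519), where PSMD2 was called in its place. The numbers of the libraries do not pair them by any source. Deviations of libraries with the same number correlated at -0.0173, 0.00865 and 0.0698, and those with different numbers at -0.0951 to 0.1. Whether libraries were paired is not settled by these values. With a replicate block 17 members were called, all lower (14.9% of all genes lower), and with the block and the GC and length correction 12 (10 lower, 2 higher, beside 18.6% and 15.2% of all genes).

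Directions reversed for single genes that were not called. In the GC- and length-corrected fit, alone and with the block, the log2 fold change was 0.0508 and 0.0509 for PSMA6, 0.0098 and 0.0149 for PSMB10, 0.0079 and 0.0073 for PSMB5, 0.0137 and 0.0131 for PSMB6, 0.0534 and 0.0534 for PSME2, 0.0504 and 0.0508 for PSMG2, and -0.0497 and -0.051 for PSME4. On log2(TPM + 1) it was 0.0008 for PSMA6 and 0.0053 for PSME2. The cause was not tested. Of 304 values of the named members under the alternatives, 241 kept direction and side of the threshold, 27 passed it newly, 20 lost it and 16 reversed. The PSMB10 to PSMB7 ratio was higher in TAZ-siRNA libraries by 0.00446 with all libraries and by 0.000996 (without TAZ-siRNA replicate 2) to 0.0083 (without control-siRNA replicate 2) when a library was left out, and in the last case the groups did not overlap. Tested members had at least 290 counts in each library, and the low-count PSMG4 and PSMB10 had standard errors of 0.0894 and 0.0937 against a median of 0.0602 over the members.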

Other observations

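Genes named after members but outside the proteasome list were looked at after their values were seen. PSMC3IP, a factor of homologous recombination, was lower by log2 fold change, at -0.25 (edgeR adjusted p = 0.0175). Of the antisense genes, PSMD6-AS2 had 0.81 (adjusted p = 0.0773), PSMG3-AS1 had 0.17 (adjusted p = 0.51) and PSMA3-AS1 had 0.092 (adjusted p = 0.422), and none passed the test. The table lists 42 pseudogenes of 17 members, 20 of them with at least 1 count, and 18 of the 46 members overlap another listed gene. Among them, PSMB7 overlaps LOC100129034, which had 16886 counts over all libraries, and PSMG2 overlaps SPIRE1, which had 43255. Reads may be shared there too, and this was not tested.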
